A study of Mus musculus with 9 samples.

Results

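The genes described here are 10 transcription and patterning factors outside the Hox clusters: Pax9, Osr1, Osr2, Mab21l2, Tbx4, Tbx5, Pitx1, Shox2, Meis1 and Prrx1. They were chosen by name as markers of where in the embryo a fibroblast came from, and selected on their measured levels in these same arrays. Their levels and the differences between genotypes are therefore given as a description, without a test. All 10 had a probe set with a gene symbol of its own, among 19937 genes with such a probe set. Gene expression was measured on 9 Affymetrix arrays in mouse embryonic fibroblasts (MEFs), which are connective tissue cells grown out from mouse embryos, with 3 arrays each for WT, CK and KO. WT cells are wild type for Cdkn1b, which encodes the cyclin-dependent kinase inhibitor p27, and KO cells are titled p27KO. CK cells carry p27CK, which in published work is a p27 protein that no longer binds cyclins and their kinases. All cultures were grown with 10% serum and then starved of it for 72 h, so that the cells were quiescent. An extraction protocol shared by all samples speaks of wt or delta51 mice, without saying which cells delta51 names. The embryonic stage and the part of the embryo used, and whether arrays of a genotype came from separate embryos or cultures, are not given in the sources used here. Any p-value therefore covers just the scatter among arrays, part or all of which may be technical, and effects of genotype and of the culture cannot be told apart.

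Fibroblasts grown from different parts of an embryo keep different sets of patterning factors switched on, so these genes serve as a record of position. Tbx5 marks forelimb mesenchyme and Tbx4 with Pitx1 hindlimb mesenchyme. Shox2 and Meis1 are known from the proximal limb, and Prrx1 from limb and facial mesenchyme. Pax9 is a factor of the pharyngeal pouches, the vertebral column, the teeth and palate and the limb. The paired zinc finger factors Osr1 and Osr2 act in kidney, limb connective tissue and palate, and Mab21l2 is needed for the eye and the ventral body wall.

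RefSeq promoters (GRCm38.p6) were found for 6 of the 10 genes, namely Pax9, Mab21l2, Tbx4, Shox2, Meis1 and Prrx1. The 250 bases before the annotated start are printed for Pax9, Mab21l2 and Shox2, which had the largest differences between genotypes among those 6. They lie at chr12:56695221-56695470 on the plus strand, chr3:86548284-86548533 on the minus strand and chr3:66981772-66982021 on the minus strand, and are read 5′ to 3′ along the gene. Capitals mark matches to the words searched.
Pax9: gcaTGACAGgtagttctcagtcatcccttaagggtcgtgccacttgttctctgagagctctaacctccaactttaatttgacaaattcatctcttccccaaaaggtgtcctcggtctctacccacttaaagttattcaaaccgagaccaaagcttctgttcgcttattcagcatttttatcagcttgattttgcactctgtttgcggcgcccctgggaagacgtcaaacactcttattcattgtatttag
Mab21l2: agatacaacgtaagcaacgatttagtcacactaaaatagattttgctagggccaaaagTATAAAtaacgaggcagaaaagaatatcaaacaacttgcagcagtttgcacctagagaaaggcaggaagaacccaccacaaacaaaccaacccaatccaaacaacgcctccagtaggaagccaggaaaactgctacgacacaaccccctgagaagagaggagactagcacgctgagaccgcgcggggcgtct
Shox2: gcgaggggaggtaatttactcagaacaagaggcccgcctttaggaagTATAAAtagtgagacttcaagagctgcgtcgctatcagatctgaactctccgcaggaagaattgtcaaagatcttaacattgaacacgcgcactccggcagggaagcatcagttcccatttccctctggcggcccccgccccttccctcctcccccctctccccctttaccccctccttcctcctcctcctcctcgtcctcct

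The 5 words searched, on both strands, were TATAAA (the TATA box), GGTGTGA (the core of a T-box site), TAATCC (the bicoid class, which includes Pitx1), TGACAG (the Meis class) and TAATTA (a homeobox core). TATAAA was present 192 bases before the start of Mab21l2, 203 before that of Shox2 and, on the other strand, 85 before that of Tbx4, and 12.4% of 32841 mouse promoters of this length held it. Pax9 had TGACAG 247 bases before its start, as did 15.9% of all promoters somewhere in the window. Prrx1 had TAATTA, found in 4.84% of all promoters. The words GGTGTGA and TAATCC, found in 3.33% and 6.25% of all promoters, were not in these 6 windows, and Meis1 held none of the 5 words. No matched words overlapped. The ratio of observed to expected CpG dinucleotides was 0.62 for Pax9, 0.73 for Mab21l2, 0.63 for Shox2, 0.60 for Meis1, 0.32 for Prrx1 and 0.28 for Tbx4, against a median of 0.37 over all promoters. These letters describe the windows and were not set against the expression values.

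Levels below are log2 RMA values, on which 1 unit is a doubling. Detection calls were not used here, so a low value may be background. A log2 value of 7.24, the 40th percentile of gene means, was used as the lower limit for genes entering a test, and 8 of the 10 genes had a mean at or above it. Tbx5 and Pitx1 were below. Arrays of one genotype correlated at 0.995 to 0.998 across probe sets and arrays of different genotypes at 0.964 to 0.975. Cdkn1b itself stood at 11.46 ± 0.04 in the WT arrays, 11.10 ± 0.09 in the CK arrays and 7.38 ± 0.11 in the KO arrays (SD, n = 3), which places the KO arrays apart from the others as their titles say.

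Pax9 was high in WT, intermediate in KO and under the lower limit in CK. The WT arrays read 12.65, 12.61 and 12.72, the KO arrays 10.85, 10.92 and 10.88, and the CK arrays 6.83, 6.97 and 6.56. All 3 genotypes were apart from each other, with the nearest WT and KO arrays 1.69 apart. The mean was 58.5-fold lower in CK than in WT (log2 difference -5.87, SE 0.09), which ranked 3 by size among the 19937 genes. KO was 3.42-fold lower than WT (log2 difference -1.78), and CK was 17.1-fold lower than KO (-4.10). The CK values lie below 7.24, so folds that involve CK describe the array signal, which background may compress, rather than the RNA. In bulk cultures, fewer cells that express a gene and less RNA per cell cannot be told apart.

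Osr1 and Osr2, zinc finger paralogs, were both highest in WT and lowest in KO, but with different steps. Osr2 read 12.93, 12.91 and 13.03 in WT, 10.32, 10.58 and 10.41 in CK, and 7.69, 7.73 and 7.44 in KO. Its 3 genotypes formed separate bands, with a log2 difference of -2.52 between CK and WT and of 2.82 between CK and KO. KO was 40.3-fold lower than WT (log2 difference -5.33, SE 0.09), rank 13 by size of all genes, with KO values near the lower limit. Osr1 read 13.22, 13.01 and 13.14 in WT, 11.17, 11.48 and 11.16 in CK, and 10.84, 10.90 and 10.76 in KO. It was bright on all arrays, and the step from WT to CK (-1.85, SE 0.09) was larger than the one that separated CK from KO (0.43). The nearest CK and KO arrays of Osr1 were 0.25 apart, against an SD of 0.18 in CK.

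Mab21l2, a member of the Mab21 family, ran in the opposite order. It read 6.99, 6.94 and 6.99 in WT, 10.25, 10.41 and 10.48 in CK, and 12.35, 12.36 and 12.48 in KO. WT arrays lay below the 7.24 limit, while KO was the highest group and no arrays of different genotypes overlapped. The difference was 5.42 (SE 0.06) between KO and WT, rank 12 by size, 3.41 between CK and WT, and -2.02 between CK and KO.

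Shox2, a homeobox factor of the proximal limb, was near WT in CK and low in KO. WT arrays read 9.49, 9.70 and 9.39, CK arrays 9.26, 9.27 and 9.25, and KO arrays 6.27, 6.41 and 6.52. The mean in KO was 8.73-fold below WT (log2 difference -3.13, SE 0.08), with all KO arrays below 7.24. CK was below WT by a log2 difference of -0.27, and the nearest arrays were 0.12 apart, less than the WT SD of 0.16.

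Meis1, a TALE homeobox cofactor of Hox proteins, stood apart in CK. WT arrays read 10.49, 10.40 and 10.44, KO arrays 10.58, 10.77 and 10.40, and CK arrays 9.37, 9.16 and 9.43. WT and KO overlapped (difference 0.14, SE 0.10), and CK was 2.18-fold below WT (-1.13) and 2.40-fold below KO (-1.26). Prrx1, a paired-related homeobox factor of limb mesenchyme, was bright throughout. It read 13.33, 13.42 and 13.42 in WT, 12.25, 12.27 and 12.25 in CK, and 11.89, 12.00 and 11.47 in KO. The order WT, CK, KO is that of Osr1, and CK and KO of Prrx1 were separated by 0.25 at their nearest arrays, with an SD of 0.28 in KO. KO was 3.03-fold below WT (-1.60, SE 0.11) and CK 2.19-fold (-1.13).

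The limb identity genes gave low values in all 3 genotypes. Tbx4, the T-box factor of the hindlimb, read 7.39, 7.31 and 7.42 in WT, 7.21, 7.28 and 7.22 in CK, and 7.27, 7.29 and 7.28 in KO. Pitx1, a homeobox factor upstream of Tbx4 in the hindlimb, read 7.22, 7.19 and 7.23 in WT, 7.22, 7.29 and 7.02 in CK, and 7.22, 7.12 and 7.22 in KO. Neither gene is shown to be above background. Their group means spanned 0.14 for Tbx4 and 0.04 for Pitx1, and their KO to WT differences of -0.09 and -0.03 were smaller than the 0.12 which centring each array on its median adds to every gene in that comparison, so they have no settled direction. Tbx5, the T-box factor of the forelimb, read 5.97, 6.01 and 6.17 in WT, 6.11, 6.01 and 6.15 in KO, and 6.80, 7.12 and 7.28 in CK. CK arrays were all above those of WT and KO, by 1.02 (SE 0.11) and 0.98 in the means, but the CK mean of 7.07 stays under the 7.24 limit. WT and KO overlapped.

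**Figure D1:**
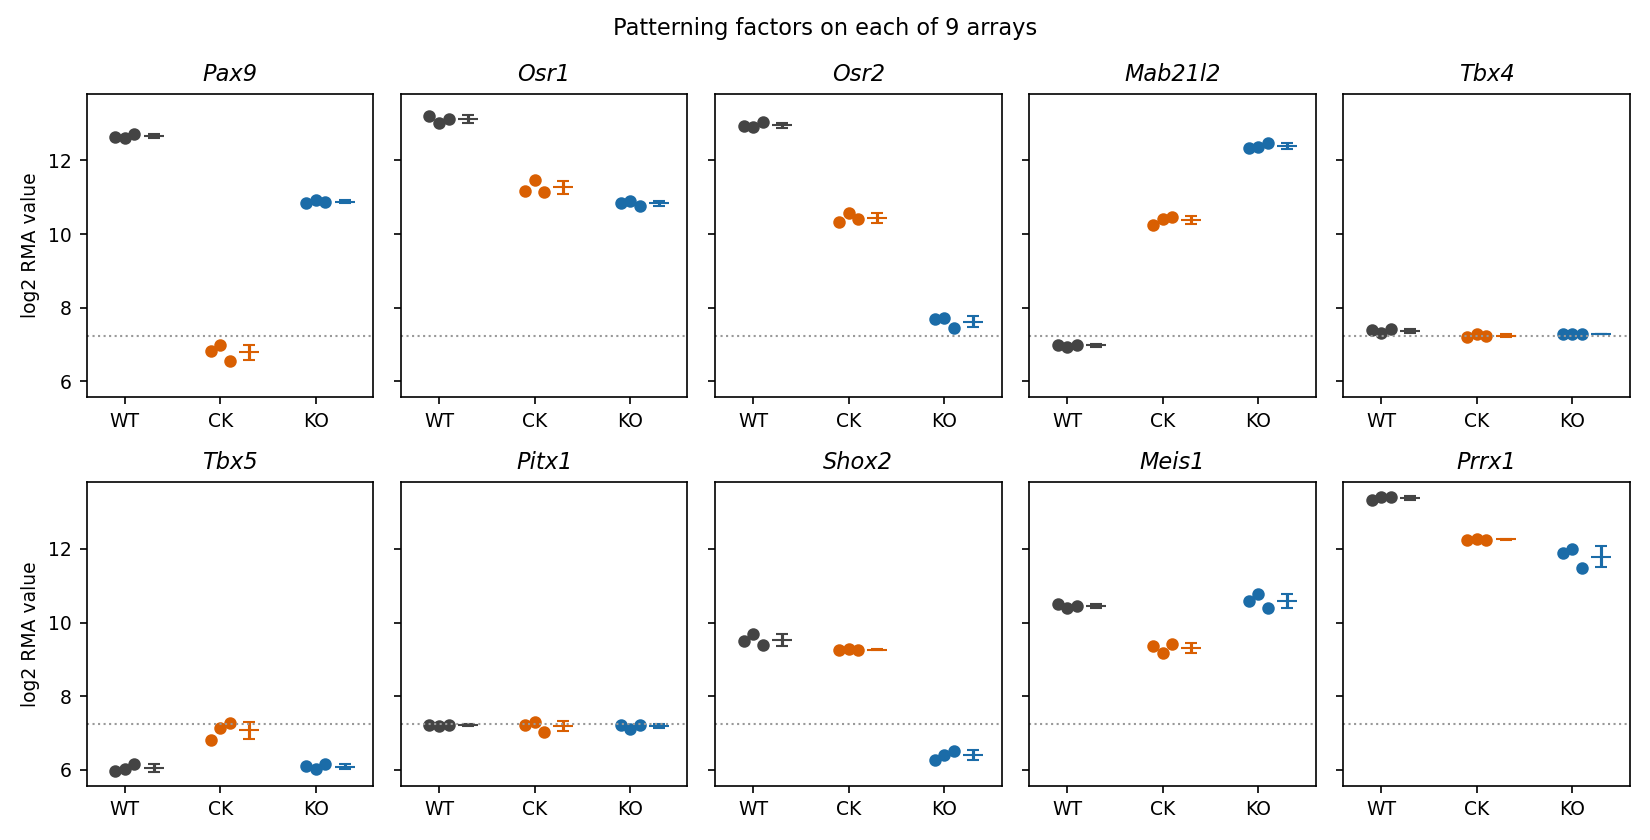
Log2 RMA value (vertical axis) of each gene on the 9 arrays, by genotype, with a bar for the mean and SD of 3 arrays beside the points and a dotted line at 7.24, the lower limit for tested genes. Pax9 lies under the line in CK, Shox2 under it and Osr2 just above it in KO, and Mab21l2 under it in WT, and Tbx4, Tbx5 and Pitx1 stay near or under it.

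Markers of the cell types themselves also differed between the genotypes. The fibroblast markers were bright apart from Fap, which was under 7.24 in every genotype, and Thy1, which stood at 11.73 ± 0.19 in WT, at 11.69 ± 0.06 in CK and at 7.14 ± 0.25 in KO. Over 12 fibroblast markers the mean log2 level was 11.99 to 12.11 in WT, 11.82 to 11.92 in CK and 11.21 to 11.23 in KO. By limma, at an adjusted p under 0.05, 0 of 11 tested fibroblast markers rose and 9 fell in KO against WT, and 1 rose and 5 fell in CK. The share of all tested genes called in either direction was 51.2% in KO versus WT and 62.9% in CK versus WT, above the share of fibroblast markers called in CK. All 8 cartilage markers rose in KO over WT, and in CK 0 rose and 3 fell. Their mean level was 8.63 to 8.74 in WT, 7.72 to 7.78 in CK and 10.61 to 11.01 in KO. Cnmd, a cartilage protein, stood at 13.33 ± 0.01 in WT, at 7.30 ± 0.17 in CK and at 13.85 ± 0.01 in KO, and so was low in CK. Acan, Matn1 and Comp were under 7.24 in WT and CK, and Col9a1 also in CK. Acan, Matn1 and Comp thus passed the lower limit through KO. Col9a1 was barely over the limit in WT (7.25), so its entry also rested on the KO arrays (mean 9.37). For these genes the limit favours a rise in KO, and the cartilage counts are therefore a description. The part of these cell type differences in the values of the patterning genes was not tested.

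Counted over the 10 genes, arrays did not overlap between KO and WT for 7 (1 higher and 6 lower in KO), between CK and WT for 9 (2 higher and 7 lower in CK) and between CK and KO for 8 (5 higher and 3 lower in CK). Over all 19937 genes, arrays did not overlap for 43.5%, 48.5% and 48.8%. As the genes were chosen with these values known, nothing is read from the counts. A difference of at least 2-fold was seen in 6, 7 and 5 of the 10 genes, and in 5.81%, 7.29% and 8.23% of all genes. The median difference over the 10 was -0.85 between KO and WT, -0.70 between CK and WT and 0.21 between CK and KO, and over all genes it was 0.01, -0.01 and -0.01. Centring each array on its median added 0.12 to every gene in KO versus WT, 0.05 in CK versus WT and -0.07 in CK versus KO.

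**Figure D2:**
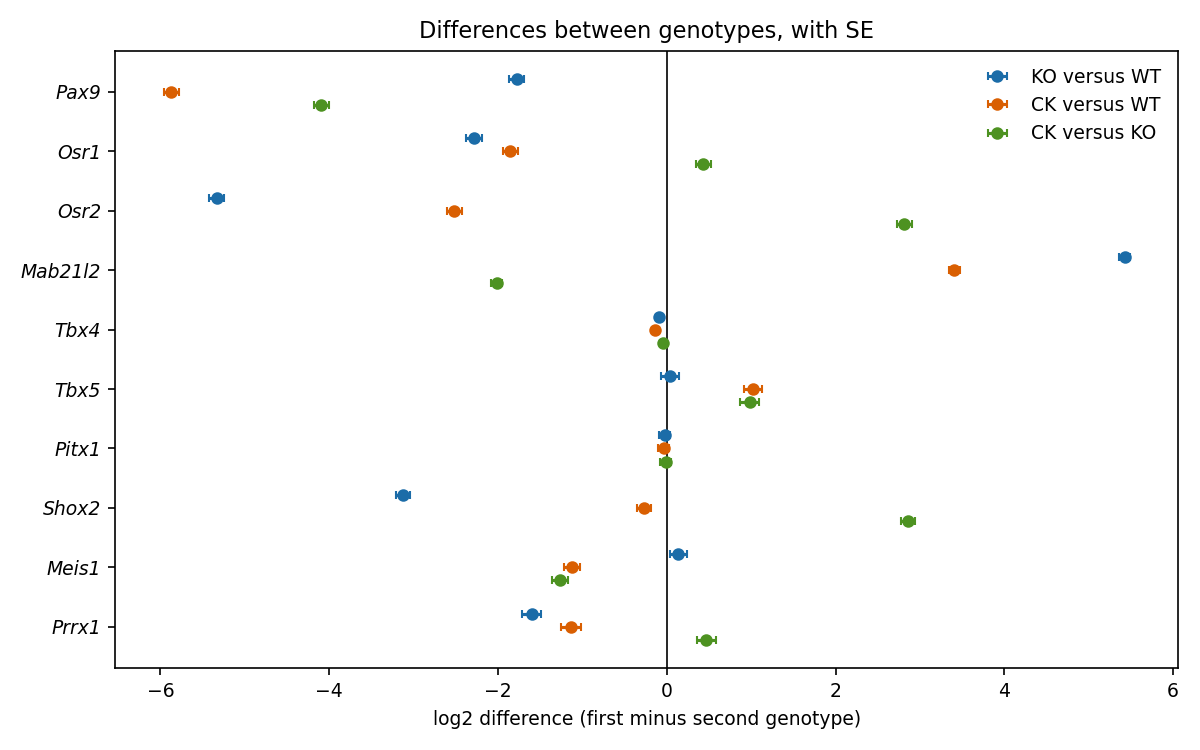
Log2 difference between genotypes for each gene (horizontal axis, first minus second genotype), with the SE of the limma fit. The largest differences are -5.87 for Pax9 in CK versus WT, -5.33 for Osr2 and 5.42 for Mab21l2 in KO versus WT, while all 3 points of Tbx4 and of Pitx1 lie near 0.

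Among themselves, the 10 genes did not share a single pattern. As a measure of likeness, each gene was centred on its mean over the 9 arrays and pairs were compared by the root mean square difference. Tbx4 and Pitx1 were closest (0.08), both being nearly flat, followed by Osr1 and Prrx1 (0.36). The paralogs Osr1 and Osr2 did not form a close pair, since CK exceeded KO by 2.82 for Osr2 and by 0.43 for Osr1.

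The same measure was used to find, among 11528 other tested genes, the 3 closest to each gene whose group means spanned at least 2. Shox2 had close company in Slit2, a secreted guidance ligand (0.12), the adhesion receptor Adgrl3 (0.14) and the membrane mucin Pdpn (0.14). Slit2, for example, stood at 12.45 ± 0.05 in WT, at 12.22 ± 0.01 in CK and at 9.26 ± 0.09 in KO (SD, n = 3). Osr1 was closest to Prkar1b, a regulatory subunit of protein kinase A (0.13), Hspa12b (0.14) and Rspo2, an R-spondin that promotes Wnt signalling in the limb bud (0.15). Osr2 was closest to the glutamate transporter Slc1a3 (0.20), the forkhead factor Foxf2 (0.27) and the adhesion protein Tenm3 (0.40). Mab21l2 was closest to the dehydrogenase Dhrs9 (0.22), Gca (0.48) and the proteoglycan Fmod (0.51). No tested gene followed Pax9 as closely, the nearest being the transporter Slc16a4 (0.77), the fatty acid elongase Elovl7 (0.79) and the Wnt antagonist Frzb (0.88). Frzb stood at 11.63 ± 0.21 in WT, at 7.55 ± 0.26 in CK and at 11.61 ± 0.35 in KO, so it lacks the step between WT and KO that Pax9 has. All of these profiles rest on 3 genotypes, which many genes can follow alike.

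**Figure D3:**
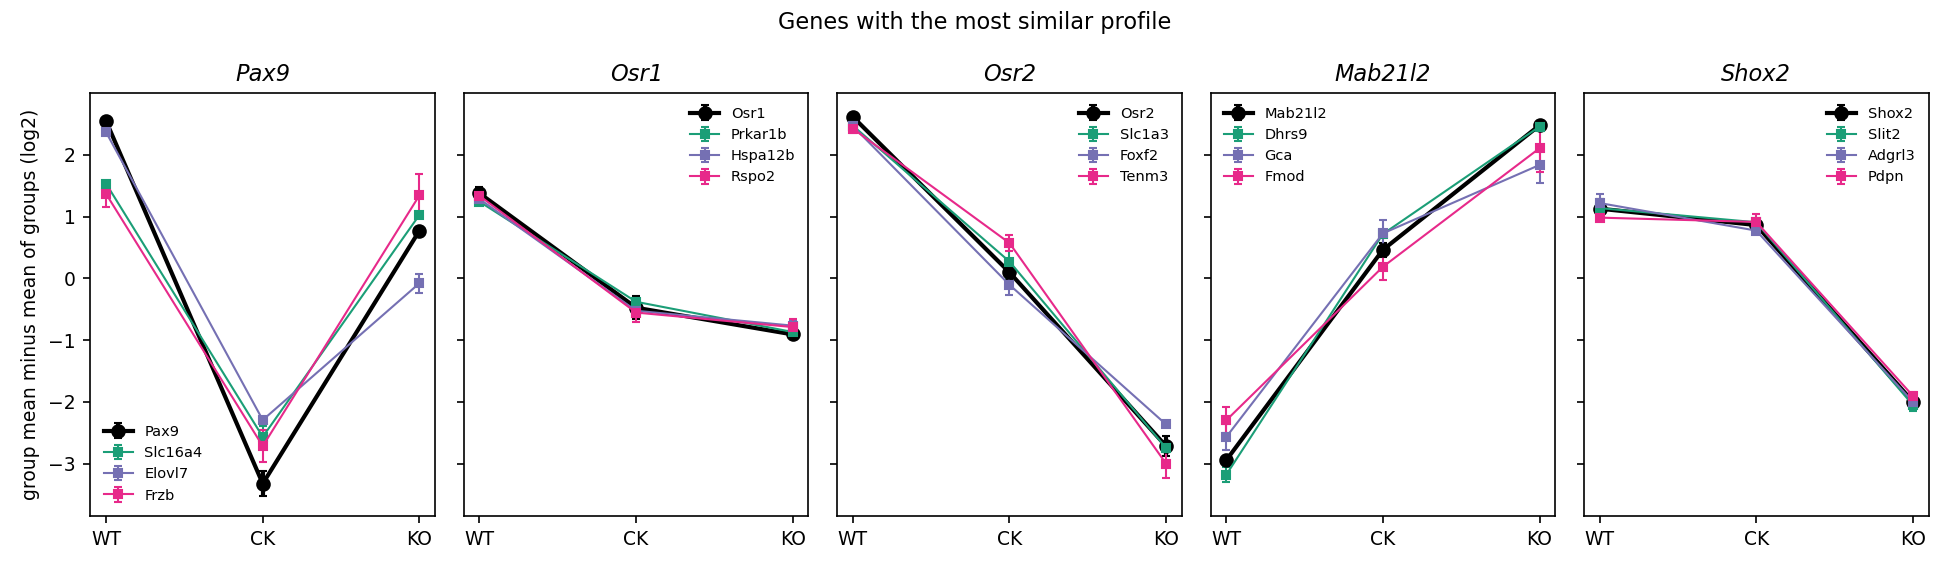
Group means of Pax9, Osr1, Osr2, Mab21l2 and Shox2 (black) and of the 3 genes closest to each, each minus the mean of its 3 groups (log2, vertical axis), with the SD of 3 arrays as bars. The lines nearly coincide for Osr1 and Shox2 and are farthest apart for Pax9.

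Other patterning genes were read from a list of 123 limb and regional factors and limb bud signals that holds none of the 10. Of these, 113 had a probe set and 85 passed the lower limit and were tested with limma over all 11962 tested genes. In KO versus WT 19 rose and 37 fell, against 26.6% of all tested genes higher and 24.6% lower, and the median was -0.02 in the list and 0.01 in all. With arrays centred on their median, 29 rose and 35 fell in the list, while 5102 rose and 2122 fell over all tested genes. In CK versus WT 22 rose and 38 fell, against 30.7% and 32.1% of all, with a median of -0.11 and -0.01. In CK versus KO 29 were higher and 26 lower in CK, against 29.5% and 32.7%, with a median of -0.03 and -0.02. With centred arrays 27 were higher and 34 lower in CK, against 3031 and 4720 over all tested genes. The larger side in this comparison therefore depends on the scaling. Since the limit is a mean over all arrays, a gene high in 1 genotype can pass through it. Mab21l1 did so through KO, Zic1, Irx6 and Dkk1 through WT, and Alx4 through CK, for example. The limit favours the direction of such calls, and they are part of these counts, which are therefore a description.

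In KO versus WT the largest rises in the list were those of Mab21l1, the closest relative of Mab21l2, and of Nkx3-2, Ptch1 and Foxp2. Mab21l1 stood at 6.34 ± 0.08 in WT, at 6.82 ± 0.12 in CK and at 9.63 ± 0.21 in KO (SD, n = 3). With WT and CK under 7.24, it entered the test through KO alone, so its values are given as a description. Nkx3-2, a repressor in cartilage formation, rose by 2.66 (SE 0.09), the hedgehog receptor Ptch1 by 2.01 and the forkhead factor Foxp2 by 1.75. The largest falls were those of the forkhead factor Foxf2, by a log2 difference of -4.83 (SE 0.08), of Tbx1, a pharyngeal T-box factor (-3.91), of the limb bud growth factor Fgf10 (-3.72) and of the zinc finger factor Zic1 (-3.43). Zic1 stood at 9.61 ± 0.13 in WT, at 5.94 ± 0.15 in CK and at 6.17 ± 0.08 in KO. It entered the test through WT alone, and its differences are likewise a description. The KO values of Foxf2 and Fgf10 were under 7.24 as well. The 8 genes were taken from those with KO and WT arrays that did not overlap.

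In CK versus WT the largest rises were those of the BMP antagonist Grem1, from 9.26 ± 0.05 to 12.61 ± 0.10 (limma adjusted p = 4.39e-09), and of the homeobox factor Emx2, known from the shoulder girdle and the urogenital tract, by 3.00 (SE 0.06). Foxf1 and the TALE factor Pknox2 each rose by 1.86. Emx2 and Pknox2 were under 7.24 in WT. Zic1 had a log2 difference of -3.67, a description for the reason given above. The homeobox factor Dlx5, under 7.24 in CK, had one of -3.55, the T-box repressor Tbx2 of -3.24 and Pax8 of -3.11, and these 3 passed the threshold.

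Set against KO, CK cells were higher in Grem1 (4.54, SE 0.12), in the limb ectoderm and dermis factor En1 (2.34), in Foxf2 (2.26) and in Tbx3 (2.20). They were lower in Foxp2 (-3.81, SE 0.10), in Eya1, a transcription cofactor (-3.26), in Foxd1 (-3.16) and in Foxc1 (-2.95). The limma adjusted p-values of these 8 genes were 1.87e-09 or smaller. Foxd1 (6.52) and Foxp2 (7.22) in CK and Foxf2 (6.36) in KO were under 7.24, so background may compress their differences.

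By family, of 6 tested T-box factors 0 rose and 5 fell in KO versus WT, and 1 rose and 3 fell in CK versus WT. Of 28 homeobox factors 4 rose and 15 fell in KO, and 8 rose and 14 fell in CK. Of 10 TALE factors, the family of Meis1, 4 rose and 2 fell in KO, and 5 rose and 2 fell in CK. Of 24 zinc finger, forkhead and bHLH factors 7 rose and 6 fell in KO, and 5 rose and 10 fell in CK. Of 11 limb bud signals 2 rose and 8 fell in KO, and 2 rose and 7 fell in CK. Of 6 tested Pax and Mab21 genes with their cofactors 2 rose and 1 fell in KO, and 1 rose and 2 fell in CK. Of all tested genes, 51.2% were called in KO versus WT and 62.9% in CK versus WT. The shares called were 83.3% and 66.7% of T-box, 67.9% and 78.6% of homeobox, and 60% and 70% of TALE factors. They were 50% in both for the Pax and Mab21 group and 54.2% and 62.5% for the zinc finger, forkhead and bHLH group. Of limb bud signals, 90.9% and 81.8% were called. With so few genes per family, 1 call more or less moves these shares by several points, and by far more in the families of 6 genes. Nothing is read from them. The family counts also hold genes that passed the lower limit through 1 genotype, such as Mab21l1, Zic1, Irx6, Dkk1 and Alx4, and are a description. The KO and CK comparisons share the WT arrays.

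**Figure D4:**
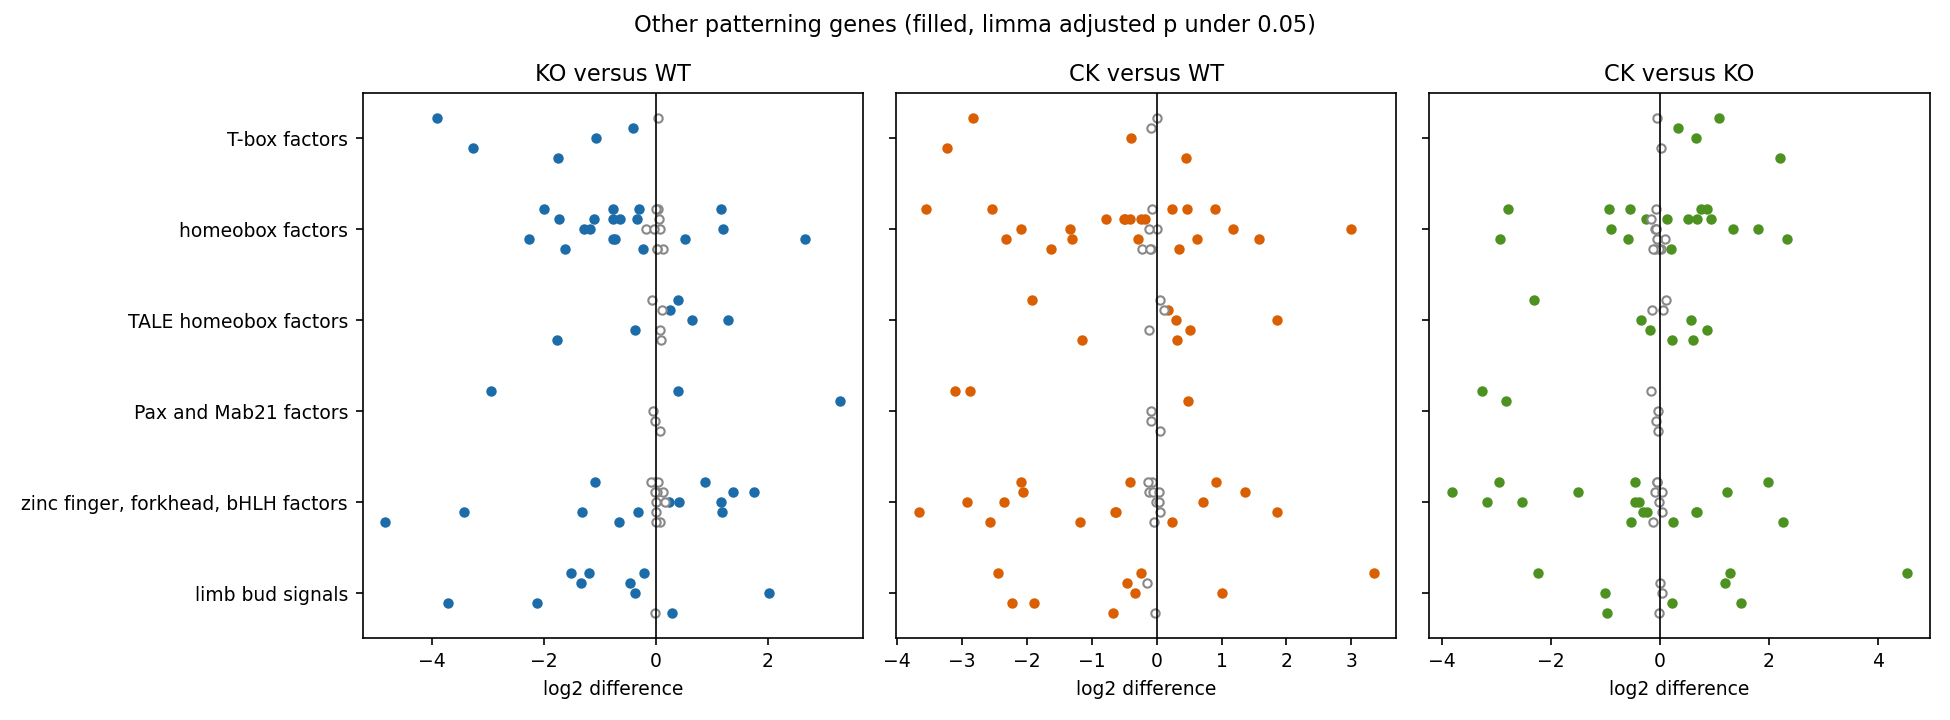
Log2 difference (horizontal axis) of the 85 tested patterning genes of the list in each comparison, by family. Filled points passed the limma test at an adjusted p under 0.05 and open points did not; T-box factors lie mostly at or below 0 in KO versus WT.

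The genes next to these 10 on the chromosome were then read. They were picked by position, but beside genes that were chosen with these values known. The nearest protein-coding gene on each side and those that overlap came to 23 genes, of which 20 had a probe set and 13 were tested. In KO versus WT 3 rose and 7 fell, in CK versus WT 4 rose and 8 fell, and in CK versus KO 5 were higher and 4 lower in CK. These counts include Veph1 beside Shox2, which passed the lower limit through KO alone, and are a description. Over all tested genes the share called was 51.2%, 62.9% and 62.2%, and the KO calls of Brip1 beside Tbx4 and Etaa1 beside Meis1 were lost when arrays were centred (limma adjusted p = 0.0758 and 0.0646). Tbx4 and Tbx5 each lie beside another T-box gene, and those neighbours differed where the limb genes themselves were dim. Both neighbours, Tbx2 and Tbx3, are also in the list of patterning genes and were counted there. Tbx2, beside Tbx4 on chromosome 11, stood at 11.10 ± 0.10 in WT, at 7.86 ± 0.12 in CK and at 7.83 ± 0.08 in KO (SD, n = 3). It fell in both mutants (limma adjusted p = 2.79e-10 in CK and 2.00e-10 in KO). Tbx3, beside Tbx5 on chromosome 5, stood at 9.65 ± 0.04 in WT, at 10.10 ± 0.06 in CK and at 7.89 ± 0.10 in KO, and so was highest in CK as Tbx5 was (0.45 over WT, SE 0.06, limma adjusted p = 9.80e-05). Rbm19, on the other side of Tbx5, was also higher in CK than in WT, by 0.38.

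On chromosome 3, Shox2 overlaps Rsrc1, a gene for a splicing-related protein. Rsrc1 was lower in KO than in WT by a smaller amount (log2 difference -0.96, SE 0.09, limma adjusted p = 1.03e-05). Veph1, on its other side, went the opposite way and stood at 7.01 ± 0.07 in WT, at 6.63 ± 0.07 in CK and at 10.17 ± 0.15 in KO, passing the lower limit through KO. Mab21l2 lies inside Lrba and beside Rps3a1, a ribosomal protein gene whose near-identical copies make its array value uncertain. Lrba rose in KO by 0.86 (SE 0.08) and fell in CK by a log2 difference of -0.28, while Rps3a1 rose in KO by 1.38 and had a difference of -0.31 in CK (limma adjusted p = 0.0162, and 0.0529 to 0.0630 without WT replicate 2, WT replicate 3 or CK replicate 2). Mab21l2 was higher than WT in both. Slc25a21, which overlaps Pax9 on chromosome 12, stood at 7.50 ± 0.24 in WT, at 5.69 ± 0.04 in CK and at 5.72 ± 0.06 in KO and was too dim to be tested. The measured neighbours of Osr1, Osr2, Meis1 and Prrx1 differed by at most 0.76 in any comparison. That largest value was Ttc32 beside Osr1, lower in CK than in WT (limma adjusted p = 5.84e-05).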

How the data were processed

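The authors' deposited values for 34760 probe sets are log2 expression values which the submitters' processing notes trace to RMA (affy package); versions are not given in the sources used here. No deposited cell holds a decimal mark. Strings of 10 to 15 digits that start with 1 were read as 10 or more and all others as below 10, which gave 4.28 to 14.44; in 2242 group and probe set pairs across 10 the median within-group range was 0.263 with the mark restored and 8.92 before. Symbols came from the platform annotation (1 symbol for 21640 probe sets, several for 1321, none for 11799), and the brightest probe set of each gene was kept; each of the 10 genes has 1. Testing used limma 3.58.1 (R 4.3.3) on all 9 arrays with 1 coefficient per genotype, with Benjamini-Hochberg adjustment over 11962 genes; differences and SEs of the 10 genes come from the same fit without the lower limit. The fit was checked on simulated data.

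The genes and lists were chosen with earlier results of these data known. Named from the list are, per comparison, the called genes without overlapping arrays that lie in the top 4 of rises or of falls; clone and model names were left out of the likeness search. The design named the nearest gene of any kind as neighbour, but only 2 of 20 had a probe set, so protein-coding neighbours were used, a choice made after the gene table was seen; RefSeq GRCm38.p6 served for names, order and promoters. The number of arrays limits the precision.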

Additional observations from a re-analysis of the deposited data

How the results depend on the processing

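Of 390 differences of the 10 genes recomputed with other scalings, array weights, all probe sets or an array left out, 378 moved by less than the spread between replicates, and the largest shift was 0.16. The 12 larger moves came from centring arrays or repeating quantile normalization. Centring adds 0.12 in KO versus WT, more than the size of the Tbx4 (-0.09) and Pitx1 (-0.03) differences. In CK versus WT it adds 0.05, more than the size of the Pitx1 difference (-0.04). The sign of these small differences therefore depends on the scaling. Raising the lower limit to the 60th percentile of gene means left 39 genes of the patterning list, of which 35 were called in KO versus WT, 34 in CK versus WT and 32 in CK versus KO. Centring arrays changed the all-gene split in KO versus WT to 5102 higher and 2122 lower. With an array left out, calls in the list ranged from 54 to 55 in KO versus WT, 58 to 60 in CK versus WT and 52 to 56 in CK versus KO. Same-numbered arrays of different genotypes had deviations that correlated from -0.30 to 0.36, and differently numbered ones from -0.34 to 0.25. The same-numbered WT and KO pairs gave 0.05, 0.25 and 0.36, and those that involve CK -0.30 to 0.05. Whether the numbers mark arrays handled together was not tested, and the main fit did not pair them. With the replicate block, 55, 60 and 53 genes of the list were called, and the block changed no call of a named gene. Of 61 tests of named genes, with 1189 values under alternatives, 1169 kept their side of the threshold, 19 lost it and 1 gained it. All that lost it were neighbours. Brip1 in KO versus WT (limma adjusted p = 0.0242) lost it when arrays were rescaled and without any WT replicate, KO replicate 1 or KO replicate 2 (0.0532 to 0.0938). Rsrc1 in CK versus WT (0.0225) lost it without WT replicate 1 or 3 or CK replicate 1 or 3 (0.0522 to 0.0791). Rps3a1 in CK versus WT lost it without the arrays named beside it, and Etaa1 in KO versus WT with centred arrays (0.0646). At an adjusted p under 0.01, Brip1, Rps3a1, Rsrc1 and, in CK versus WT, Etaa1 lost it. Spred2 in CK versus WT gained it without CK replicate 2. Without detection calls, signal over background is unknown for Tbx4, Tbx5, Pitx1, Pax9 in CK, Shox2 in KO and Mab21l2 in WT.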

Other observations

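Markers of other cell types that MEF cultures could hold were mostly under the 7.24 limit. Of 8 skeletal muscle markers 6 were under it in every genotype, and the tested Actc1 and Acta1 did not pass the test in any comparison. Epithelial Krt8 and Krt18 did not pass it either. Cdh1, the epithelial cadherin, stood at 6.77 ± 0.05 in WT, at 6.68 ± 0.03 in CK and at 7.51 ± 0.05 in KO, above the limit in KO alone, and was not tested because its mean over all arrays was below it. Epithelial Epcam, Krt5 and Krt14 were under the limit in all genotypes. Pecam1, Cdh5, Kdr and Emcn, which mark endothelium, were under the limit in all genotypes, while the receptor gene Tek stood at 8.77 ± 0.18 in WT, at 6.51 ± 0.07 in CK and at 6.80 ± 0.03 in KO (SD, n = 3). The macrophage markers Adgre1, Csf1r, Ptprc and Itgam were under the limit in all genotypes. Cd68, a lysosomal protein also made by fibroblasts, stood at 10.64 ± 0.09 in WT, at 8.59 ± 0.02 in CK and at 7.99 ± 0.22 in KO, and Lyz2 read 6.90, 7.59 and 8.83. Of the neural markers, Map2 stood at 10.57 ± 0.14 in WT, at 9.35 ± 0.15 in CK and at 7.63 ± 0.13 in KO, and Elavl3 did not pass the test in any comparison. Nes, the intermediate filament protein nestin of progenitor cells, went the other way in CK. It stood at 6.04 ± 0.18 in WT and at 9.50 ± 0.36 in CK, and read 5.99, 5.94 and 6.08 in KO, so that CK arrays lay above all others (log2 difference 3.45 from WT, SE 0.16), and it too was not tested. Tubb3, Sox10 and Sox2 were under the limit in all genotypes.

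Adipocyte genes went separate ways. Pparg, a regulator of fat cell formation, stood at 10.91 ± 0.12 in WT, at 8.45 ± 0.23 in CK and at 10.22 ± 0.03 in KO, lowest in CK as Pax9 and Meis1 were. Lpl, a lipase, was high in CK, at 9.88 ± 0.46, against 7.29 ± 0.05 in WT and 6.64 ± 0.03 in KO, and Fabp4 was also highest in CK. Cebpa was lower in both mutants, at 8.01 ± 0.10 in CK and 8.21 ± 0.16 in KO, against 8.95 ± 0.20 in WT. Its CK and KO arrays overlapped. Plin1 was nearly flat, at 7.39 in WT and 7.38 in CK and KO. Adipoq was under the limit in all genotypes.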
